A study of Mus musculus with 12 samples.

Results

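The genes described here are those named for proteins of the cytosolic ribosome. They were taken from the array annotation as all probe sets with 1 gene symbol that starts with Rpl or Rps followed by a digit, or that is Rplp0, Rplp1, Rplp2 or Rpsa. Processed copies marked -ps and the Rps6k kinases were left out, and the brightest probe set stood for each gene. The rule gave 45 genes from 51 probe sets, out of 30142 genes with a probe set of their own, with 25 names of the large subunit (Rpl) and 20 names of the small subunit (Rps). Of these, 33 encode standard subunits, 18 in the large and 15 in the small subunit. The other 12 are paralogs, copies or genes that only share the name, and they are described separately.

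Livers came from 12-week-old males of the strain C57BL/6, and their RNA was read on 12 Affymetrix whole-transcript arrays, 4 per group. The control group held males whose parents were lean. The F2 and F3 groups held grandsons and great-grandsons of obese females of the genotype Avy/a, where Avy stands for the viable yellow agouti allele, which makes mice obese. Some labels instead call the F2 and F3 males sons of an obese mother, and the labels give neither the males' own agouti genotype nor the generation of the control males. Whether each replicate was its own animal is not said in the labels. The p-values therefore reflect only how far these samples vary, which may be technical. F2 minus control and F3 minus control use the same 4 control arrays, and F3 minus F2 uses the same F2 and F3 arrays again. The design asks whether liver expression of males differs when a female ancestor was obese.

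The ribosome consists of a small subunit, which binds the messenger RNA and reads its codons, and a large subunit, which joins amino acids and passes the chain out through a tunnel. Its proteins are made in matched amounts, and their messenger RNAs are among the most abundant in liver, an organ that exports large amounts of plasma protein. Most of these messenger RNAs start with a C followed by a run of C and T bases, the 5' terminal oligopyrimidine motif, through which their translation follows the nutrient-sensing kinase complex mTORC1. Arrays measure the amount of RNA and not its translation. In whole liver, fewer cells of a type and less RNA per cell cannot be told apart.

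RefSeq promoter sequences of the assembly GRCm38.p6 were matched to 37 of the 45 genes. The other 8, Rpl6l, Rpl7, Rpl8, Rps14, Rps20, Rps29, Rps3a2 and Rps3a3, were not analysed here for sequence. The windows shown run from 30 bases before to 20 bases from the annotated start of transcription, 5' to 3' on the gene's strand. The first 5 are the members whose annotated start is a C followed by at least 4 bases that are all C or T, and capitals mark that run. Runs that open with a T at the annotated start, as in Rpl7a, Rps23rg1 and Rps24, were not counted. They are shown because that run is the sequence feature by which these messenger RNAs are known. The last 3 belong to genes whose values are described in detail and have no such C-led run at the annotated start. There only the start base is in capitals.
Rpl35, chr2:39005112-39005161, minus strand: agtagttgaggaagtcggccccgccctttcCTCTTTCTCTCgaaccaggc
Rpl38, chr11:114668550-114668599, plus strand: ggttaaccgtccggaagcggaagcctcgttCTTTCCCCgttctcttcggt
Rps10, chr17:27635225-27635274, minus strand: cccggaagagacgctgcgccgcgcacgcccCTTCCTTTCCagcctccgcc
Rps18, chr17:33955646-33955695, minus strand: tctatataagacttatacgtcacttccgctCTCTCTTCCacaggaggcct
Rpl32l, chr10:20208409-20208458, plus strand: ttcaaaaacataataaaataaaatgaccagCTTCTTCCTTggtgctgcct
Rps28, chr17:33824543-33824592, minus strand: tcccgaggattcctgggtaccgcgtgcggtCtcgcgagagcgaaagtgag
Rpl12, chr2:32961682-32961731, plus strand: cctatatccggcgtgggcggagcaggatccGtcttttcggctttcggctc
Rps26, chr10:128626487-128626536, minus strand: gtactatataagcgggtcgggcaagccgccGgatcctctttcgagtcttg

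A C at the annotated start followed by at least 4 bases that are all C or T occurred in 5 of the 37 matched members (13.5%), against 3.01% of 27025 genes in the promoter table. Annotated starts can lie some bases away from the start used in a tissue, so runs nearby were counted as well. A run of at least 8 C or T bases on the gene's strand between 10 bases before and 30 bases after the start occurred in 16 of 37 members (43.2%) and in 16.4% of all genes. CCGGAAG, the core of the sequence bound by ETS factors, occurred on either strand within 250 bases before to 50 bases after the start in 16 of 37 members (43.2%), in 14 of the 28 matched standard subunit genes (50.0%) and in 9.93% of all genes. In the windows printed above it stands in Rpl38 and Rps10, before the pyrimidine run. These matches describe letters in the window and not bound sites.

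The arrays measured a part of the ribosome only. Of 77 standard subunit genes listed for this work, 33 had a probe set with a symbol of its own and 44 did not. Another 53 probe sets carried several symbols of which at least 1 was a ribosomal protein name, and 43 such names occurred on those probe sets alone. Probe set identifiers carry a chromosome code, which matched the RefSeq chromosome of the named gene for 30001 of 30126 probe sets (99.6%). For 39 of the 45 members the code was that of the gene. For the other 6 the brightest probe set carried another chromosome, namely Rpl12 (code 10, gene on chromosome 2), Rpl27 (18 and 11), Rpl31 (7 and 1), Rpl35 (1 and 2), Rpl41 (14 and 10) and Rpl7a (9 and 2). Values of these 6 are marked below, since ribosomal protein genes have many processed copies elsewhere in the genome and the files do not say which copy was probed.

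Liver identity was checked with markers. All 7 hepatocyte markers measured lay far above the filter, from 9.82 for Hnf4a to 13.31 for Alb on the log2 scale as means over the 12 arrays. The hepatocyte score, the median deviation of these genes from their own means, stayed between -0.09 and 0.05 in the 12 arrays. The score of 8 macrophage markers ranged from -0.14 to 0.17 in control, from -0.20 to 0.48 in F2 and from -0.42 to 0.26 in F3. The part of cell composition in the values below was not tested.

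The deposited values are log2 expression values, so a difference of 1 is a 2-fold difference. As means over the 12 arrays the members ran from 4.48 (Rpl3l) to 11.14 (Rpl4), and 44 of 45 passed the filter on low values, a mean above 4.55. Rpl3l, the paralog of Rpl3 found mainly in muscle, did not pass and was not tested. The SD over the 12 arrays had a median of 0.099 over the members, against 0.124 over the 18725 genes tested. By subunit it was 0.123 for the 25 large and 0.099 for the 20 small subunit names. Between its lowest and highest array a member differed by 0.34 at the median, from 0.12 for Rpl6 to 0.62 for Rpl6l, with 9 members under 0.25 and 9 over 0.50.

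Among the standard subunit genes the steadiest were Rps19, a small subunit protein often mutated in Diamond-Blackfan anaemia (SD 0.040), Rpl6 (0.041), Rpl11 (0.047), Rpl7a (0.051, probe set on another chromosome code) and Rpl4 (0.056). Rpl4 lines the exit tunnel. Rpl11 binds the 5S ribosomal RNA and, when free, the p53 inhibitor Mdm2. The most variable were Rpl41 (0.201) and Rpl27 (0.178), both read by a probe set with another chromosome code, then Rps26 (0.191), Rpl31 (0.164, another code) and Rpl38 (0.154). The arrays of Rpl27, Rps26 and Rpl38 are described below.

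**Figure D1:**
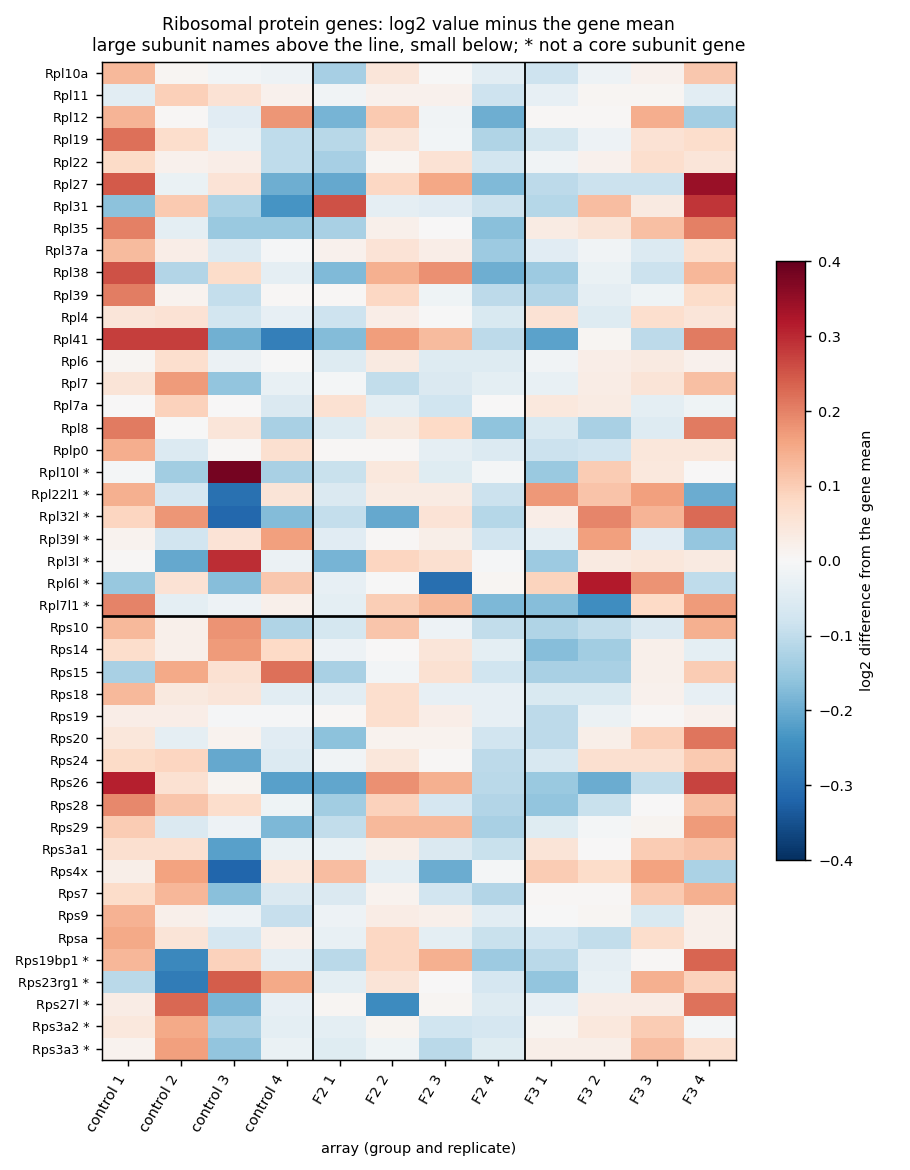
Deviation of each log2 value from its gene's 12-array mean, for the 45 genes named for ribosomal proteins (vertical axis) in the 12 arrays (horizontal axis, 4 per group). Control replicates 1 and 4 have 39 and 14 genes above their own mean and F2 replicates 2 and 4 have 36 and 1, so arrays of the same group differ in most members at once.

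In every group most members lay on the same side of their own means in some arrays, while other arrays were mixed. F3 replicate 2, for example, had 6 members more than 0.1 above their means and 6 more than 0.1 below. In control replicate 1, 39 of the 45 genes lay above their own mean over the 12 arrays, with a median deviation of 0.078. The other control arrays had 32, 19 and 14 genes above, with medians of 0.026, -0.020 and -0.031. The control arrays thus reached from the highest array of all to arrays with most members below their means. In F2 the numbers were 8, 36, 24 and 1 for replicates 1 to 4, with medians of -0.052, 0.039, 0.002 and -0.081. In F3 they were 13, 22, 33 and 35, with medians of -0.066, -0.001, 0.041 and 0.075. As a mean over arrays the median deviation was 0.013 ± 0.050 in control, -0.023 ± 0.054 in F2 and 0.012 ± 0.061 in F3 (SD, n = 4 each). The group means lay closer together than 1 SD of any group, and the ranges of the 3 groups overlapped.

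Large and small subunit names followed each other across arrays. The median deviation of the 25 large subunit names was 0.124 in control replicate 1 and -0.084 in F2 replicate 4, and that of the 20 small subunit names was 0.071 and -0.077 in the same arrays. The large minus small difference in an array ran from -0.047 (control replicate 2) to 0.053 (control replicate 1). In F2 all 4 values lay between -0.020 and 0.003. In F3 they were 0.033, 0.024, 0.016 and -0.038. The F2 and F3 ranges lie within the control range. As a mean over arrays the difference was -0.0 in control, -0.006 in F2 and 0.009 in F3. Taken instead from the medians of the gene differences, large minus small was -0.047 for F3 minus control, so its sign depended on the measure. These values compare RNA of the measured names, and the amounts of the subunits themselves were not measured.

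**Figure D2:**
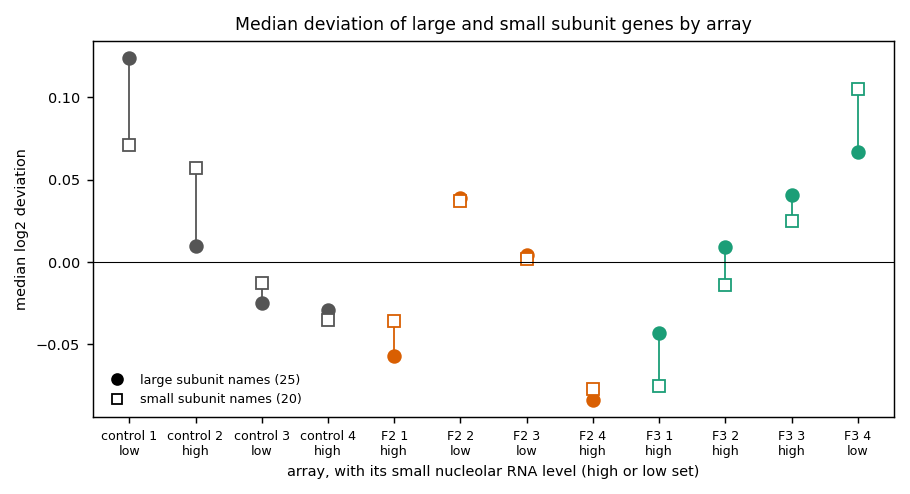
Median deviation per array of large subunit names and small subunit names, in log2 units, by group (horizontal axis: the 12 arrays with their small nucleolar RNA set, high or low; filled circles are the 25 large and open squares the 20 small subunit names). The 3 groups overlap for both subunits, from -0.084 to 0.124 for large and from -0.077 to 0.105 for small subunit names.

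Small nucleolar RNAs, which guide the modification of ribosomal RNA and many of which lie in introns of ribosomal protein genes, divided the arrays into sets at the widest gap in their mean level. In the higher set (mean level 6.33 to 6.44 over 337 genes) were 2 control arrays (replicates 2 and 4), 2 F2 arrays (1 and 4) and 3 F3 arrays (1, 2 and 3). The lower set (5.89 to 6.03) held the other 5 arrays. Among the members 30 of 45 lay lower in the higher set, with a median difference of -0.063, beside 11192 of 18725 genes and -0.031. The median deviation of the members was -0.024 ± 0.047 (SD, n = 7) in the higher set and 0.035 ± 0.043 (SD, n = 5) in the lower set. The sets were made from these data and are not groups of the study, so no test is given.

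In 4 members all arrays of the higher set lay below all arrays of the lower set and in 0 members above, while over all genes tested 2.34% lay below and 3.37% above without overlap. Rpl27 differed by -0.30, Rpl38 by -0.27, Rps19bp1 by -0.24 and Rpl8 by -0.20. Rpl38 is a large subunit protein needed for patterning of the mouse skeleton, and Rpl8 lies near the catalytic centre. Rpl38 read 9.53, 9.16, 9.35 and 9.24 in control, 9.10, 9.42, 9.46 and 9.08 in F2 and 9.13, 9.25, 9.19 and 9.41 in F3, in replicate order. Its 5 highest arrays are the 5 arrays of the lower set, and every group holds high and low arrays.

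Rpl27 read 9.01, 8.74, 8.82 and 8.57 in control, 8.56, 8.85, 8.92 and 8.59 in F2 and 8.66, 8.68, 8.68 and 9.11 in F3. Again the 5 high arrays are those of the lower set. The Rpl27 probe set that carries the gene's own chromosome differed by -0.18 between the sets. Rps26, which lies where messenger RNA leaves the small subunit, read 10.80, 10.55, 10.50 and 10.27 in control, 10.28, 10.67, 10.63 and 10.38 in F2 and 10.34, 10.29, 10.39 and 10.76 in F3. It was lower in the higher set by a difference of -0.31, and control replicates 2 and 3 overlapped. Another Rps26 probe set, with chromosome code 8, gave -0.34, and the faintest of its 3 lay at 2.71. Not all members followed this direction: Rpl6l was higher in the higher set by 0.25 and Rps4x by 0.23. Group differences are therefore also given with the array set as a block, and for each set alone.

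In F2 livers no ribosomal protein gene passed the test against control, but 39 of 45 had a lower mean than control. Limma, fitted over all 12 arrays and 18725 genes with Benjamini-Hochberg adjustment, called 0 of 44 tested members, as it called 0.0% of all genes. The smallest adjusted p of a member was 0.9999 by limma. The number of members with an unadjusted limma p under 0.05 was 0 (0.919% of all genes), and in 0 members did the arrays of the groups not overlap (0.705% of all genes). The median difference was -0.043 over the members and -0.010 over all genes tested, of which 56.7% lay lower. Large subunit names lay lower in 23 of 25 (median -0.041) and small subunit names in 16 of 20 (median -0.049). The differences ran from -0.15 to 0.13.

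The lower mean in F2 rested in part on single arrays. Without control replicate 1 the count was 27 of 45 lower with a median of -0.022, and without F2 replicate 4 it was 32 with -0.027. Within the higher array set 37 members lay lower (median -0.079), and within the lower array set, with 2 control and 2 F2 arrays, 24 did (median -0.007). Members with an unadjusted limma p under 0.05 numbered 1 without control replicate 1, beside 331 of all 18725 genes, and 1 without control replicate 4 (147 genes). They numbered 2 without F2 replicate 2 (282 genes) and 2 within the higher array set (422 genes). With the array set as a block there was 1 (304 genes), and with array weights there were 4 (966 genes). Probe sets with several symbols, which the rule left out, lay lower in 41 of 53 (median -0.025).

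By the function of the proteins, both measured stalk genes lay lower in F2, as did 39 of all 45 members. The stalk recruits translation factors to the large subunit. Rplp0, its scaffold, read 9.57, 9.37, 9.43 and 9.49 in control, 9.43, 9.43, 9.39 and 9.37 in F2 and 9.34, 9.35, 9.47 and 9.47 in F3, a difference of -0.06 ± 0.060 (SE) for F2 and -0.06 for F3 against control. Control replicate 1 was the highest array and the other arrays overlapped. Rpl12, at the stalk base (probe set on another chromosome code), read 10.63, 10.50, 10.45 and 10.67 in control, 10.31, 10.60, 10.48 and 10.30 in F2 and 10.50, 10.50, 10.64 and 10.36 in F3. F2 replicates 1 and 4 were the lowest arrays, while F2 replicates 2 and 3 lay among the controls. The F2 minus control difference was -0.14 ± 0.086 (SE; exact two-sided permutation p = 0.171), and within the lower array set it was 0.00035. Rplp1 and Rplp2 had no probe set of their own. Rpl11, the measured protein of the 5S particle, differed by -0.05 in F2 and by -0.05 in F3, and its F2 difference was 0.01 within the lower array set.

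All 3 measured genes for proteins of the messenger RNA exit site, Rps14, Rps26 and Rps28, lay lower than control in both F2 and F3. Of all 45 members, 39 lay lower in F2 and 25 in F3. Of 5 measured genes for proteins of the large subunit's exit tunnel, 4 lay lower in F2 (median -0.035). In F3, 2 of these 5 lay lower and 3 higher (median 0.029). Rps28 had the lowest difference of all members in F2. It read 5.95, 5.87, 5.83 and 5.74 in control, 5.62, 5.85, 5.69 and 5.64 in F2 and 5.60, 5.67, 5.76 and 5.88 in F3. Most F2 arrays lay under the controls, and F2 replicate 2 lay among them. The difference was -0.15 ± 0.076 (SE) for F2 (exact two-sided permutation p = 0.0857; adjusted p = 0.9999 by limma) and -0.12 for F3 (exact p = 0.200). Within the lower array set, which holds 1 F3 array (replicate 4) and 2 control arrays, Rps28 was at -0.01 and Rps26 at 0.11 for F3 minus control. Rps14 was at -0.15 there. For Rps26, leaving out each array in turn gave -0.19 to 0.0045.

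The other members with the lowest differences in F2 were Rps15, a small subunit protein near the decoding site (-0.11), Rpl19, which forms a bridge between the subunits (-0.09), and Rps14 (-0.09). The members with the highest were Rpl31 at the tunnel exit (0.13 ± 0.10, SE; probe set on another chromosome code), Rps29 (0.05), Rpl22l1 (0.02), Rps19bp1 (0.01) and Rps19 (0.01). Rpl31 rested on F2 replicate 1, which read 5.87 against 5.53 to 5.58 in the other F2 arrays and 5.38 to 5.72 in control. Without that array its difference was 0.05. None of these passed the test, and Rps15 turned to 0.06 within the lower array set, Rpl22l1 to -0.06 and Rps19 to -0.02 within the higher one, and Rps29 and Rps19bp1 to -4e-05 and -0.10 without control replicate 2 and F2 replicate 2.

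**Figure D3:**
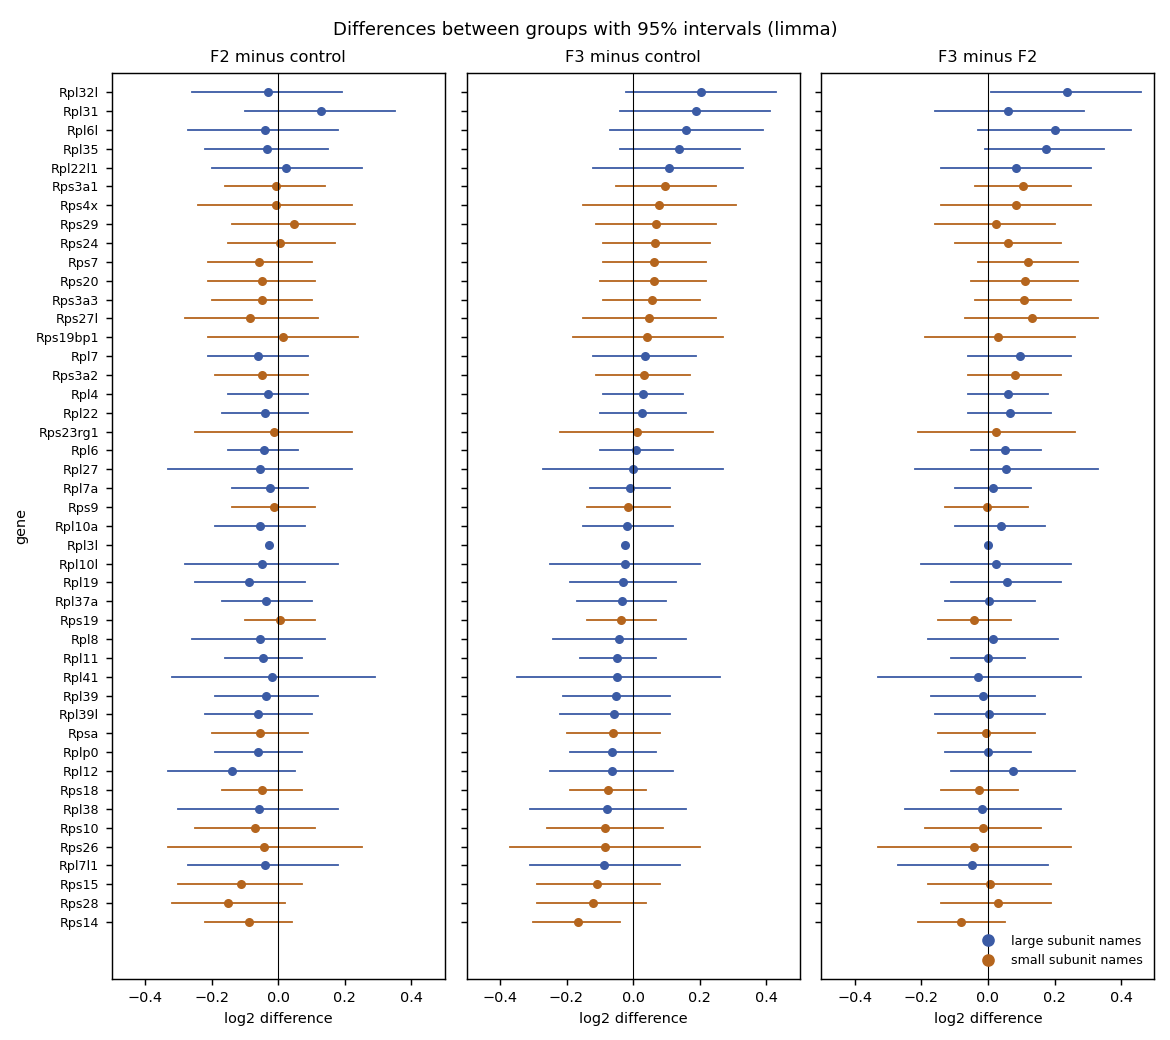
Difference between group means in log2 units with 95% confidence intervals from limma (horizontal axis) for each member (vertical axis, ordered by F3 minus control), in 3 panels for F2 minus control, F3 minus control and F3 minus F2; Rpl3l was not tested and has no interval. All 44 tested members have intervals within a 1.5-fold difference in each panel, and Rps14 in F3 minus control and Rpl32l in F3 minus F2 have intervals that leave out 0.

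In F3 livers 25 members lay lower than control and 20 higher, with a median of -0.016 against -0.010 over all genes tested, of which 54.7% lay lower. Limma called 0 of 44 members (0.0% of all genes), with a smallest adjusted p of 0.9998 by limma. Large subunit names lay lower in 16 of 25 (median -0.025) and small subunit names in 9 of 20 (median 0.022). Over the standard subunit genes alone the medians were -0.024 for the large and -0.035 for the small subunit, both below 0. The direction of the whole list turned with single arrays: without control replicate 1, 28 of 45 lay higher (median 0.019), and without F3 replicate 1, 25 did (median 0.019). With the array set as a block 27 lay higher (median 0.009).

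Rps14 was the member with an unadjusted limma p under 0.05 in this comparison, 1 of 44, while 2.93% of all genes had one. It helps to shape the exit channel for messenger RNA, and its human counterpart lies in the region lost in the 5q- syndrome. It read 5.866, 5.821, 5.968 and 5.884 in control, 5.776, 5.802, 5.851 and 5.762 in F2 and 5.631, 5.657, 5.819 and 5.763 in F3. All F3 arrays lay below all control arrays, the nearest pair by 0.002, and the F2 arrays overlapped both. The difference of F3 from control was -0.17 ± 0.059 (SE; 95% interval -0.30 to -0.04; adjusted p = 0.9998 by limma). An exact two-sided permutation test gave p = 0.0286, the smallest that 4 against 4 arrays allow. Groups of 4 arrays that do not overlap always give this p, so it only restates the separation. It was the 1 member of 45 whose F3 and control arrays did not overlap, beside 1.63% of all genes in either direction and 0.903% in the lower one. Leaving out each array in turn gave -0.20 to -0.14. Members with an unadjusted limma p under 0.05 numbered 4 without control replicate 1, beside 681 of all 18725 genes. They numbered 3 without control replicate 2 (1210 genes) and 3 without F3 replicate 4 (745 genes). They numbered 2 without F3 replicate 1 (456 genes), 3 with array weights (970 genes) and 2 when the array set was blocked (699 genes). With the filter raised to 5.92, the 75th percentile of probe set means, the number was 0, beside 373 of 10852 genes. Rps14, with a mean of 5.8 over the arrays, did not pass that filter.

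Rps28 followed with -0.12, Rps15 with -0.11, Rpl7l1 with -0.09 and Rps26 with -0.09, none of which passed the test. With the 1 F3 array of the lower set, replicate 4, against its 2 control arrays, the values were -0.01 for Rps28, 0.14 for Rps15, 0.07 for Rpl7l1 and 0.11 for Rps26. These values rest on that single array. Rpl7l1 is a nucleolar relative of Rpl7 that takes part in making the large subunit. At the other end lay Rpl32l (0.21 ± 0.10, SE; exact two-sided permutation p = 0.200), Rpl31 (0.19; another chromosome code), Rpl6l (0.16), Rpl35 (0.14; another chromosome code) and Rpl22l1 (0.11; -0.12 for the single F3 array of the lower set). Rpl32l, Rpl6l and Rpl22l1 are named after Rpl32, Rpl6 and Rpl22 and are not among the standard subunit genes.

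Between the descendant generations 32 members had a higher mean in F3 than in F2 and 13 a lower one, with a median of 0.029 against 0.003 over all genes, of which 51.4% lay higher. Limma called 0 of 44 (0.0% of all genes). The count was 40 of 45 higher with the array set as a block (median 0.061), 23 after quantile normalization (median 0.005), and 23 without F3 replicate 4 (median 0.005). Rpl32l was the 1 member with an unadjusted limma p under 0.05 (2.37% of all genes). It read 9.60, 9.69, 9.20 and 9.34 in control, 9.42, 9.31, 9.57 and 9.40 in F2 and 9.54, 9.71, 9.65 and 9.74 in F3. The lowest F3 array lay under the highest F2 array, and control replicates 1 and 2 were as high as F3. The count was 0 with the replicate number as a block, after quantile normalization or without any one of F2 replicates 1 and 4 and F3 replicates 2 and 3. It was 2 without F3 replicate 1 (445 of all 18725 genes), 3 with the array set as a block (585 genes) and 8 with array weights (1255 genes). Within the higher array set it was 4 (669 genes), with only the F2 and F3 arrays 2 (682 genes), and with array medians centred 0 (265 genes). The Rpl32l difference was 0.24 (exact two-sided permutation p = 0.0571; adjusted p = 0.9999 by limma).

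In 2 members, Rpl35 and Rps3a3, all F3 arrays lay above all F2 arrays, which was the case for 1.62% of all genes. Rpl35, at the tunnel exit, read 9.87, 9.63, 9.52 and 9.52 in control, 9.54, 9.69, 9.67 and 9.50 in F2 and 9.70, 9.72, 9.79 and 9.87 in F3. The difference was 0.17 ± 0.084 (SE; exact two-sided permutation p = 0.0286; adjusted p = 0.9999 by limma), and control replicate 1 equalled the highest F3 array. Groups of 4 arrays that do not overlap always give this permutation p, so it only restates the separation by which the gene was picked. The Rpl35 probe set with the gene's own chromosome code gave 0.12, and -0.07 and 0.05 for F2 and F3 against control. Rps3a3 ran from 9.37 to 9.46 in F2 and from 9.50 to 9.60 in F3, while control ran from 9.32 to 9.64 and spanned both.

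The next highest F3 minus F2 differences were those of Rpl6l (0.20), Rps27l (0.13) and Rps7 (0.12), and the lowest those of Rps14 (-0.08), Rpl7l1 (-0.05), Rps26 (-0.04), Rps19 (-0.04) and Rpl41 (-0.03, another chromosome code). With the array set as a block Rpl7l1 was 0.001, Rps26 0.04 and Rpl41 0.02. The Rpl41 probe set with the gene's own chromosome code, which is fainter, gave -0.10 for F3 minus F2. It gave -0.04 and -0.13 for F2 and F3 against control. Rps27l is a paralog of Rps27 whose transcription is raised by p53, and Rps7 binds Mdm2.

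**Figure D4:**
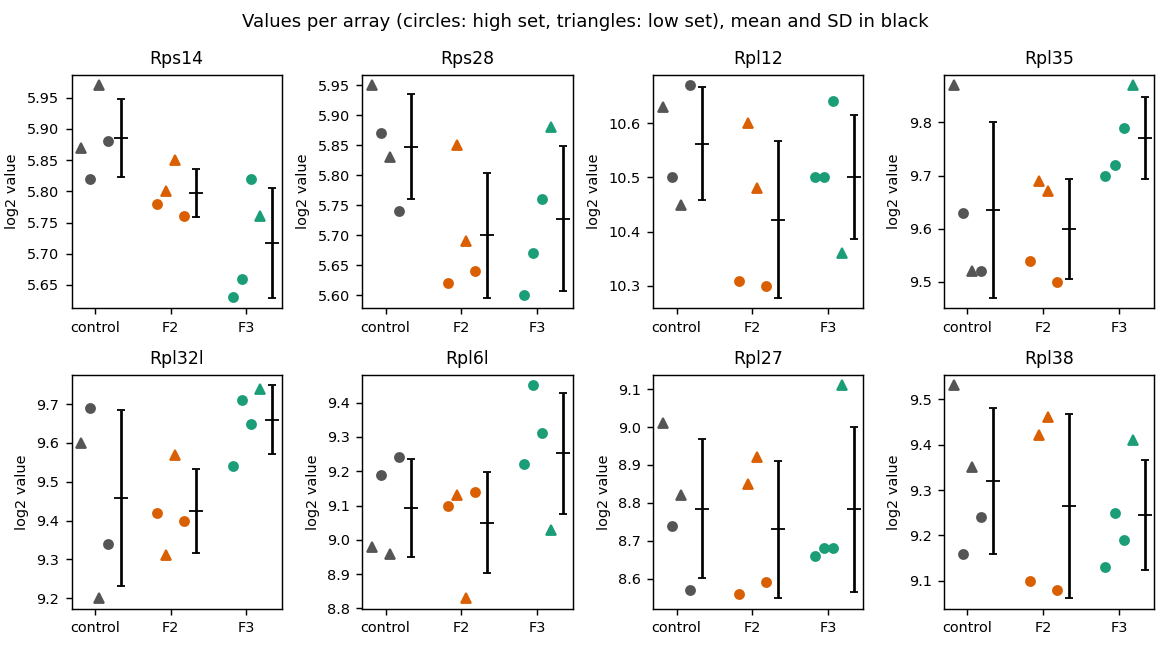
Log2 values of selected members in each of the 12 arrays, by group (circles and triangles are arrays of the higher and lower small nucleolar RNA set; black bars are the mean and SD, n = 4). The F3 arrays of Rps14 lie between 5.63 and 5.82 and the control arrays between 5.82 and 5.97, while in Rpl38 the arrays of each group spread over most of the gene's range.

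The precision of the comparisons was set by 4 arrays per group. The 95% intervals of all 44 tested members lay within a 1.5-fold difference in every comparison. They lay within a 1.25-fold difference in 39 members for F2 minus control, in 38 for F3 minus control and in 37 for F3 minus F2. The bound farthest from 0 was 0.35 for F2 minus control (Rpl31), 0.43 for F3 minus control (Rpl32l) and 0.46 for F3 minus F2 (Rpl32l).

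The 12 members that are not standard subunits varied more over the arrays, with a median SD of 0.143, than the standard large (0.090) and small (0.098) subunit genes. RefSeq classes Rpl6l, Rps3a2 and Rps3a3 as pseudogenes. Rps19bp1 encodes a binding partner of Rps19 that also activates the deacetylase Sirt1, and Rps23rg1 arose by retroposition of Rps23; neither is a ribosomal protein. Rpl10l and Rpl39l are paralogs used mainly in testis. In F3 minus control these 12 members had a median of 0.037, with 8 higher and 4 lower, and in F2 minus control a median of -0.041, with 2 higher and 10 lower.

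Rps3a1, which encodes the standard subunit protein, and its annotated copies Rps3a2 and Rps3a3 had their lowest array in common, control replicate 3, which read 9.14, 9.72 and 9.32 in the 3 genes. The same array was the lowest for 6 more members, Rps4x (7.48), Rps7 (9.82), Rps24 (5.98), Rpl7 (6.49), Rpl22l1 (4.58) and Rpl32l (9.20). It was the highest for 5, Rpl10l (5.65), Rps23rg1 (6.91), Rps10 (6.95), Rps14 (5.97) and Rpl3l (4.77). Signals of near-identical copies cannot be told apart with certainty, so these 3 values are uncertain.

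Fau, which encodes the small subunit protein S30 fused to a ubiquitin-like protein, falls outside the naming rule. It was the 1 of 3 otherwise named subunit genes with a probe set of its own. It read 9.90, 9.93, 9.83 and 9.78 in control, 9.68, 9.78, 9.78 and 9.60 in F2 and 9.90, 9.87, 9.85 and 9.89 in F3. All F3 arrays lay above all F2 arrays, and the highest F2 arrays met the lowest control array. The difference was -0.15 ± 0.059 (SE) for F2 minus control and 0.17 for F3 minus F2, each with an adjusted p of 0.9999 by limma. For F3 minus control it was 0.02, and -0.03 after quantile normalization.

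Genes that build and use ribosomes were followed as lists, and limma called 0 of their members in any comparison, as it called 0.0% of all genes. The counts for these lists stand beside 56.7% of all genes tested lower in F2 and 54.7% lower in F3. The median over all genes was -0.010 in both. Whether any list departs from all genes was not tested. Of the ribosome assembly factors 39 of 41 were measured; 31 of these lay lower in F2 (median -0.034) and 26 in F3 (median -0.044) than in control. The member with the lowest p was Nolc1, a nucleolar chaperone, with -0.21 in F3 against control (adjusted p = 0.9998 by limma). Of the translation factors 32 of 38 were measured, with 19 lower in F2 (median -0.009) and 21 higher in F3 (median 0.011). Eif3d, a subunit of initiation factor eIF3, differed by -0.14 in F3 (adjusted p = 0.9998 by limma).

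Of the mTORC1 and MYC regulators 19 of 21 were measured, with 10 lower in F2 (median -0.020) and 14 lower in F3 (median -0.055). Rps6kb2, a kinase of ribosomal protein S6, differed by -0.16 in F3 (adjusted p = 0.9998 by limma). Of the p53 and nucleolar stress targets 8 of 10 were measured, with 7 lower in F2 (median -0.023) and 5 lower in F3 (median -0.032). Of 6 measured genes mutated in Diamond-Blackfan anaemia, 4 lay lower in F2 (median -0.045) and 4 in F3 (median -0.041). The 79 mitochondrial ribosomal protein genes, which belong to a separate ribosome, lay lower in 53 in F2 (median -0.013) and higher in 42 in F3 (median 0.007).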

How the data were processed

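The deposited values are log2 expression values per probe set, and per the submitters' processing notes the authors used Affymetrix Expression Console. Version, build, normalization and background correction: not given in the sources used here. Probe sets were named by the platform annotation, and of 72688 probe sets 30604 had 1 symbol. Genes were tested where the mean over 12 arrays passed 4.55, the median of all probe sets. With R 4.3.3, limma 3.58.1 was fitted to all 12 arrays without covariates (9 residual degrees of freedom), and p-values were adjusted by Benjamini-Hochberg over 18725 genes with a threshold of 0.05. The fit was also run on simulated data with independent noise. The changes simulated were larger than any member difference reported here, so that run does not bear on differences of this size. A score is the median over genes of each value's deviation from its gene's mean. The members and gene lists were chosen with earlier results of these data known. Members named with values were the 5 highest and 5 lowest differences per comparison, those with an unadjusted p under 0.05 or groups that do not overlap, stalk and 5S genes, members that are no standard subunit, and the most and least variable. Members set against the array sets, and those that share their lowest or highest array, were chosen after their values were seen. The alternatives are given in the closing section.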

Additional observations from a re-analysis of the deposited data

Results flagged for a closer look

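In 8 of 141 groups of 4 arrays, 1 array lay far from the other 3, by Dixon's criterion at 95%. The groups covered each gene and the scores of all members and of large minus small, and all 8 flagged were of genes. Chance gives about 1 in 20, which is 7.0 groups here, though genes read on the same arrays are not independent. Rpl10a read 8.59 in control replicate 1, against 8.44 to 8.47 in the other control arrays. Rpl22l1 read 4.68 in F3 replicate 4, against 4.99 to 5.05. Rpl27 read 9.11 in F3 replicate 4, against 8.66 to 8.68; this is the F3 array of the lower small nucleolar RNA set. Rpl31 read 5.87 in F2 replicate 1, against 5.53 to 5.58, and it is the array on which the F2 difference of this gene rested. Rpl3l read 4.33 in F3 replicate 1, against 4.51 to 4.52, below the filter on low values. Rpl6 read 6.65 in F2 replicate 2, against 6.56 in the other F2 arrays. Rpl6l read 8.83 in F2 replicate 3, against 9.10 to 9.14. Rps18 read 6.33 in F2 replicate 2, against 6.22 to 6.23.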

How the results depend on the processing

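Limma called 0 members in all 3 comparisons under every alternative that was fitted, with unadjusted p under 0.05 in 0, 1 and 1 members in the fit reported. Over the alternatives that count was 0 to 4 for F2 minus control, 0 to 4 for F3 minus control and 0 to 8 for F3 minus F2. The highest for F2 minus control and F3 minus F2 came with array weights, where 966 and 1255 of 18725 genes had such a p. The 4 for F3 minus control came without control replicate 1, where 681 genes did. The median difference of all members ran from -0.079 to -0.007 for F2 minus control, from -0.032 to 0.033 for F3 minus control and from 0.005 to 0.061 for F3 minus F2, and leaving out each array in turn gave -0.066 to -0.022, -0.032 to 0.019 and 0.005 to 0.062. Leaving out each array moved the large minus small subunit difference from -0.018 to 0.014, from -0.052 to 0.001 and from -0.019 to 0.039. For F3 minus control that difference was -0.047, and it was 0.001 within the higher array set, 0.001 without control replicate 2 and F2 replicate 2 together, 0.011 over standard subunit genes alone and 0.015 with means in place of medians. For F3 minus F2 it was 0.012, and it was -0.013 after quantile normalization, -0.039 within the lower array set, -0.013 without that pair and 0.040 over standard subunit genes alone. The cause was not tested.

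With the replicate number as a block the medians were -0.043, -0.016 and 0.029 and 0 members were called, as without the block. Members with an unadjusted limma p under 0.05 then numbered 0, 1 and 0, beside 140, 409 and 341 of 18725 genes. Same-numbered arrays of 2 groups had correlations of their deviations between -0.51 and 0.32. These values neither show nor exclude a pairing by number, since differences between the array sets also enter them.

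Of 398 values of single genes under alternatives that leave out no array alone, 24 changed sign. The lower set holds 1 F3 array, so its F3 values rest on that array. In F2 minus control, within the lower set Rpl11 was 0.01, Rpl12 0.00035 and Rps15 0.06; within the higher set Rpl22l1 was -0.06 and Rps19 -0.02; without the pair Rpl22l1 was -0.0014, Rps19 -0.0038, Rps19bp1 -0.10 and Rps29 -4e-05. In F3 minus control, Fau was -0.03 after quantile normalization, and within the lower set Rpl22l1 was -0.12, Rpl7l1 0.07, Rps15 0.14 and Rps26 0.11. In F3 minus F2, with the array set as a block Rpl41 was 0.02, Rpl7l1 0.001 and Rps26 0.04; within the higher set Rpl41 was 0.04 and Rps26 0.01; within the lower set Rpl41 was 0.06, Rpl7l1 0.05 and Rps26 0.12; without the pair Rpl41 and Rps26 were 0.02. Leaving out each array in turn, sign changes were found in Fau (-0.01 to 0.04) and Rps26 (-0.19 to 0.0045) for F3 minus control, in Rpl22l1 (-0.06 to 0.09), Rps19 (-0.01 to 0.02) and Rps19bp1 (-0.07 to 0.06) for F2 minus control, and in Rpl41 (-0.11 to 0.03), Rpl7l1 (-0.12 to 0.02) and Rps26 (-0.15 to 0.02) for F3 minus F2. The pair, the probe sets with the gene's own chromosome code and those with several symbols were alternatives chosen after seeing the data. Quantile normalization moved the median of all genes by at most 0.04 and centring on array medians by at most 0.064.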
